A study of Mus musculus with 20 samples.

Results

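The genes of antigen presentation by the major histocompatibility complex (MHC) followed in mouse liver were H2-Aa, H2-Ab1, H2-Eb1, Cd74 and Ciita of the class II pathway, and H2-K1, H2-D1, B2m, Tap1 and Nlrc5 of the class I pathway. They were chosen by symbol, as 10 of the 46095 symbols of the deposited count table, and all 10 were present. RNA of livers was sequenced from 20 mice, 5 in each of 4 groups, to examine the role of Pck1, a gluconeogenic enzyme gene, in steatohepatitis induced by diet. The groups were wild-type (WT) mice on a chow diet (WT chow), WT mice on a NASH diet, which brings on non-alcoholic steatohepatitis (WT NASH), mice with a liver-specific knockout of Pck1 (Pck1-cKO, here KO) on chow (KO chow), and KO mice on the NASH diet (KO NASH). In every group feeding lasted 24 weeks and age was 31 to 33 weeks. The labels name no strain, sex or Cre driver. They give no statement on separate animals beyond numbering the mice, so p-values measure the spread between these samples.

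Class I molecules display peptides from inside the cell to CD8 T cells. They consist of a heavy chain (H2-K1 or H2-D1) and beta-2-microglobulin (B2m), and are loaded with peptides that the TAP transporter (Tap1 with Tap2) brings into the endoplasmic reticulum. Nlrc5 is the co-activator of their genes. Class II molecules display peptides of proteins taken up by the cell to CD4 T cells. H2-Aa and H2-Ab1 encode the alpha and beta chains of I-A, H2-Eb1 encodes the beta chain of I-E, Cd74 encodes the invariant chain that escorts them, and Ciita is the master co-activator of all these genes. In liver, class I is made by nearly all cells, while class II is mainly a property of Kupffer cells, dendritic cells and B cells. In bulk liver RNA, fewer cells of a type and less RNA per cell cannot be told apart.

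The counts of 6 of the 10 genes cannot be read as expression levels, because they lie in a stretch of chromosome 17 where counts were low or absent. On GRCm38 coordinates the stretch ran from chr17:33774900 to 35650569. Its ends were set after the counts were seen. H2-K1 (chr17:33996012-34000619), Tap1 (chr17:34187556-34197225), H2-Ab1 (chr17:34263227-34269418), H2-Aa (chr17:34282744-34287823), H2-Eb1 (chr17:34305867-34316674) and H2-D1 (chr17:35263094-35267497) lie inside it. Of the 113 protein-coding genes of the stretch, 4.42% had at least 1000 counts over the 20 libraries and 38.1% had none, with a median of 6 counts. Of the 21201 protein-coding genes outside the stretch, its flanks included, 47.9% had at least 1000 counts and 21.5% had none, with a median of 737. Of the 43 genes just before the stretch, 62.8% reached 1000 counts and 11.6% had none. Of the 72 genes just after it, 19.4% reached 1000 counts and 44.4% had none, with a median of 3.5, so the stretch stood apart from the genes before it and from all other genes more than from those after it. From Vwa7 to H2-D1 (chr17:35016360-35267497), 25 of 27 genes were listed at 0 in all 20 libraries.

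The genes listed at 0 included ones that nearly all cells use. Csnk2b (a casein kinase subunit), Bag6 (a chaperone of newly made proteins), Prrc2a, Ddx39b (an RNA helicase of splicing and export), Clic1 and Abhd16a had 0 counts in all 20 libraries. So did Apom, the hepatocyte gene of apolipoprotein M. H2-Q10, a class I gene known for its expression in liver, had 53 counts over all libraries. Against the GENCODE M21 transcripts, none of the 50-base words of Csnk2b, Bag6, Prrc2a, Clic1, Abhd16a and Apom occurs in another gene, and 2.54% of those of Ddx39b do. The 5 genes of the stretch with at least 1000 counts were C4b (24951 counts), Rps18 (17612), H2-K1 (10730), H2-Q4 (6422) and Cfb (4570). Of their 50-base words 35.2%, 86.7%, 8.79%, 39.2% and 81.4% occur in another gene. Another gene here is any other gene name, which may cover the same locus. The words of Cfb were shared with Gm20547 alone. Whether Gm20547 overlaps Cfb, and where the counts of these 5 genes came from, was not tested. The reason for the low counts was not tested. The values of the 6 genes are given below as the counts that remained, and neither their size nor their ratio to other genes is a level of expression.

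**Figure D1:**
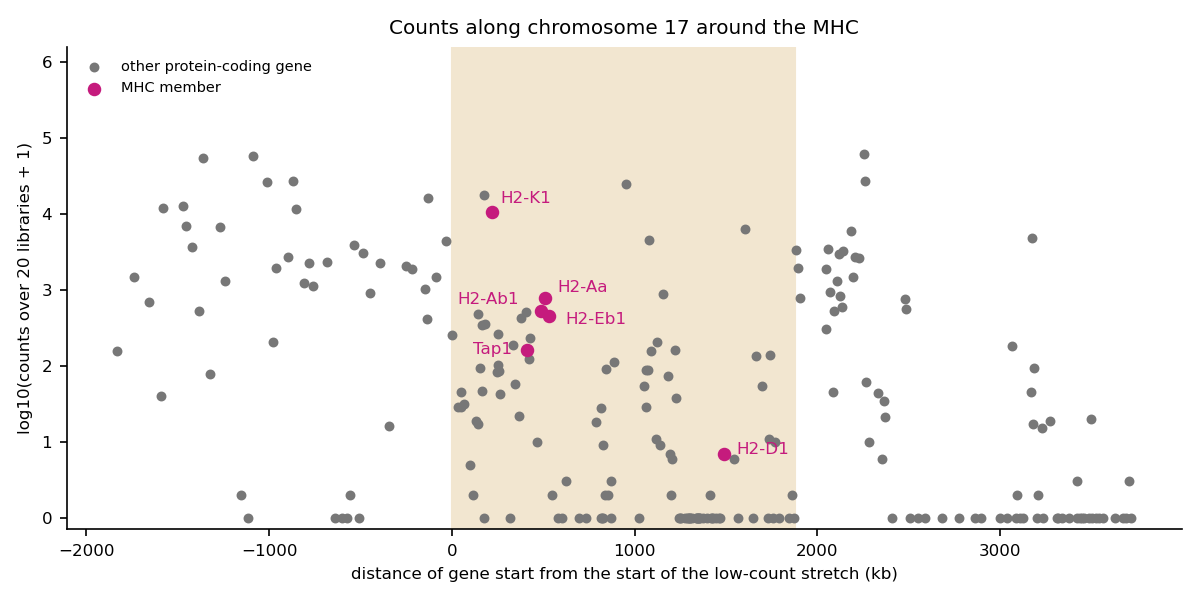
Each point is a protein-coding gene, placed by the distance of its start from the start of the low-count stretch (x axis, kb) with log10 of its counts over 20 libraries plus 1 (y axis). The shaded span is the stretch, where 43 of 113 genes lie at 0, and the 6 pink points are the MHC genes of the set, with H2-K1 at 10730 counts and H2-D1 at 6.

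The other 4 genes lie elsewhere: B2m at chr2:122147687-122153082, Nlrc5 at chr8:94434335-94527272, and Ciita at chr16:10480014-10531064, with Cd74 also on another chromosome. Over the 20 libraries B2m had 843294 counts, Cd74 25812, Nlrc5 10426 and Ciita 929. Inside the stretch H2-K1 had 10730, H2-Aa 780, H2-Ab1 533, H2-Eb1 451, Tap1 160 and H2-D1 6.

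Promoters of class I and class II genes are known for shared control elements, and those matched here are shown for that reason. Whether the genes of the set are controlled together was not tested. Class II promoters hold an X box and a Y box at a set spacing, bound by RFX and NF-Y, on which the Ciita product acts, while class I promoters add a kappaB element and an interferon-stimulated response element. RefSeq (GRCm38.p6) promoter windows, from 250 bases before to 50 bases after the start, were matched for 6 of the 10 genes. The stretch from the X box letters GCAACT to the Y box letters ATTGG, both in capitals, reads as follows in 2 class II genes, 5′ to 3′ on the strand of the gene.
H2-Aa, chr17:34287867-34287904, minus strand: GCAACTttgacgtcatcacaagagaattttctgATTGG
H2-Eb1, chr17:34305776-34305812, plus strand: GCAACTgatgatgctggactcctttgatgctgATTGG

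The stretch from the kappaB letters (GGGGA, any base, TCCCC) to the letters TTTCACTTC of the interferon response type, both in capitals, reads as follows in the 2 class I heavy chain genes.
H2-K1, chr17:34000429-34000458, minus strand: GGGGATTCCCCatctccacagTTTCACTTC
H2-D1, chr17:35262923-35262952, plus strand: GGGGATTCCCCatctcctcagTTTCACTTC

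The 2 class I stretches are equal at 29 of 30 bases. Searched on both strands of all 32851 windows, the kappaB motif was found in 0.0487% (16 windows), TTTCACTTC in 0.505%, GCAACT in 10.9% and ATTGG in 37.4%. Of the 6 genes with a window, all held ATTGG, 3 held GCAACT (H2-Aa, H2-Eb1 and Tap1), and H2-K1 and H2-D1 held the other 2 motifs. The motifs do not overlap in the sequences shown. A match describes the letters and does not show a bound site.

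H2-K1 and H2-D1 also resemble each other in their coding parts, which bears on whether reads could be assigned to either. Of 1080 aligned coding bases 91.5% were equal, and the longest equal run was 91 bases. That run is shown with 10 bases on each side, from coding base 728 of H2-K1 and 737 of H2-D1 (GENCODE M21), and capitals mark the bases that differ.
H2-K1: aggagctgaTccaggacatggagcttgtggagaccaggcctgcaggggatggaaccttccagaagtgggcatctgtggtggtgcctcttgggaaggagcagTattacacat
H2-D1: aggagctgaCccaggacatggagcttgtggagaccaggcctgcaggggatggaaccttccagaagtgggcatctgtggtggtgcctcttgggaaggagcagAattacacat

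Of the 50-base words of H2-K1, 8.79% occur in another gene, and of those of H2-D1, 14.3%. Of 100-base words the shares are 0 and 4.64%. H2-Aa, H2-Ab1, H2-Eb1, Cd74, B2m and Nlrc5 share no 50-base word with another gene. Ciita shares 0.269%, with Dexi, and Tap1 6.47%, most with Psmb9, Gm15821 and Tap2. Whether these names overlap the same locus was not tested. Counts of H2-K1 and H2-D1 are uncertain for both reasons, the shared words and the stretch.

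Library totals ranged from 9958935 to 20601955 counts, and 1 CPM (counts per library size after TMM scaling) stood for 6.80 to 24.9 counts. Pck1 was at 3573 ± 1139 CPM in WT chow and 626 ± 175 in KO chow, and at 2290 ± 511 in WT NASH and 445 ± 112 in KO NASH (SD, n = 5 each), with no overlap between genotypes on either diet. Sex, read from Y-linked genes and Xist, was not balanced: all 5 WT chow mice were read as male, as were 3 of KO chow, 4 of KO NASH and, in WT NASH, replicate 4 alone. In 6 libraries (WT chow replicates 3, 4 and 5, WT NASH replicate 4, KO chow replicates 4 and 5) short genes stood higher against long ones than in the other 14. Their slopes of log2 CPM on log2 gene length were -0.33 to -0.24, against 0.0025 to 0.19 in the others. KO NASH replicates 1 and 5 were more alike than any other pair within a group.

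Per kilobase of exon, mean counts over the 20 libraries were in the order B2m (3339 CPM per kb), Cd74 (43.4), H2-K1 (10.8), Nlrc5 (3.55), H2-Eb1 (0.63), H2-Aa (0.60), H2-Ab1 (0.57), Ciita (0.28), Tap1 (0.084) and H2-D1 (0.0062). B2m stood above Cd74, and H2-K1 above Nlrc5, with no overlap over the 20 libraries. Cd74 stood above H2-K1 in all 20 libraries, although the ranges overlapped. H2-Eb1, H2-Aa and H2-Ab1 did not stand apart in this order: H2-Eb1 was above H2-Aa in 12 of 20 libraries, and H2-Aa above H2-Ab1 in 8. Among the counts that remained, the per-length ratio of H2-Aa to H2-Ab1 ran from 0.338 to 5.65 over the libraries. The ratio of Cd74 to H2-Ab1, per length, was 75.8 from the means and ran from 31.2 to 299. H2-Aa and H2-Ab1 lie in the stretch, so neither ratio is one of expression levels.

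In WT mice, Cd74 was higher on the NASH diet than on chow. Replicates 1 to 5 of WT chow had 42.2, 51.8, 28.6, 61.4 and 26.8 CPM, and those of WT NASH 75.6, 111, 103, 77.5 and 96.7. Every WT NASH library was above every WT chow library. The means were 42.1 ± 14.9 and 92.7 ± 15.6 CPM (SD, n = 5), which differed by 1.14 on the log2 scale (SE 0.259, adjusted p = 0.0128 by edgeR). It was the single call among 9 genes tested, where 5.93% of the 14440 genes tested were called. The call ended with sex as a term (log2 fold change 1.16, adjusted p = 0.100) and among males alone (0.86, adjusted p = 0.389), where WT NASH is 1 library at 77.5 CPM against 26.8 to 61.4 in 5 WT chow males. Diet and sex cannot be told apart beyond that library, because WT chow held no female. With sex and length slope as terms the log2 fold change was 1.12 (adjusted p = 0.0397).

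Ciita, whose product switches on Cd74 and the class II chains, had 2.01, 2.65, 1.59, 2.75 and 0.90 CPM on chow and 1.81, 3.68, 3.45, 3.24 and 3.87 on the NASH diet in WT mice. The WT NASH libraries lay above all WT chow libraries except replicate 1, which lay inside their range. The difference was 0.69 on the log2 scale (SE 0.311, edgeR adjusted p = 0.194) and was not called. With limma voom it was called (0.93, adjusted p = 0.0312), where that tool called 40.6% of all genes. It rested on 13 to 62 counts per library. In KO mice Ciita was at 2.87, 2.13, 2.03, 1.02 and 2.19 CPM on chow and 3.67, 3.55, 2.30, 3.59 and 3.26 on the NASH diet, a log2 difference of 0.67 (SE 0.303, edgeR adjusted p = 0.198), again not called.

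Cd74 in KO mice was at 68.6, 54.6, 78.2, 92.2 and 37.6 CPM on chow and 95.7, 93.4, 63.1, 82.8 and 117 on the NASH diet, and the groups overlapped. The mean of KO chow (66.2 ± 21.1 CPM) stood between that of WT chow and those of the 2 NASH groups. Against WT chow it differed by 0.65 on the log2 scale (SE 0.257, edgeR unadjusted p = 0.0193, adjusted p = 0.153), which was not called. It was called without KO chow replicate 5, the lowest KO chow library (0.84, edgeR adjusted p = 0.0390). It was also called by limma voom (0.90, adjusted p = 0.00641), which called 40.4% of all genes. KO NASH and WT NASH differed by -0.04 (2-SE interval -0.55 to 0.47). The diet difference in KO mice less that in WT mice was -0.69 (SE 0.361, edgeR adjusted p = 0.662), so a difference in the diet response of Cd74 between the genotypes did not pass the test. With limma voom it was -1.04 (adjusted p = 0.0313), where that tool called 13.5% of all genes.

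**Figure D2:**
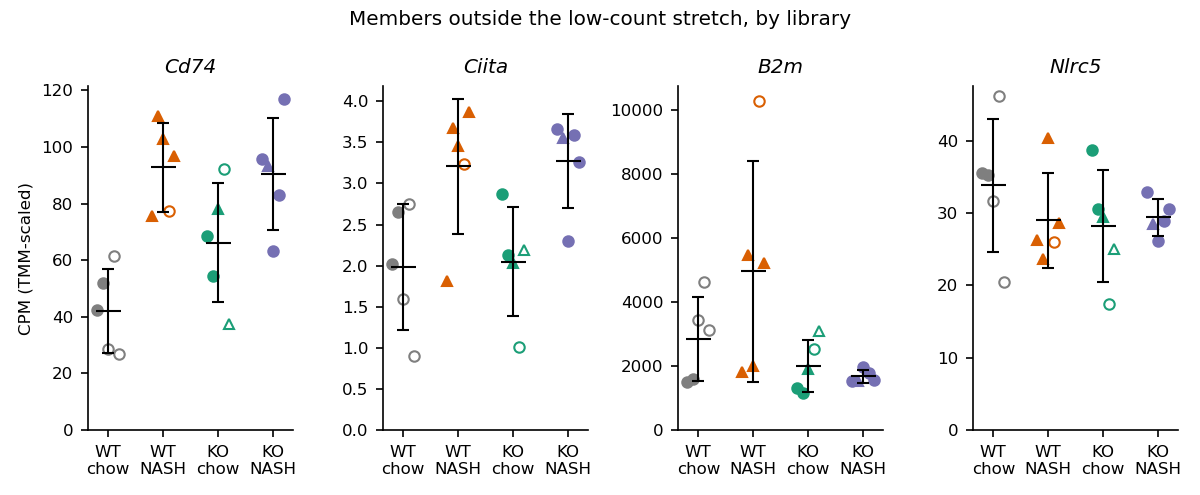
TMM-scaled CPM (y axis) of Cd74, Ciita, B2m and Nlrc5 in each library of the 4 groups (x axis), with mean and SD bars (n = 5). Triangles are libraries read as female and circles male, open symbols are the 6 libraries with a negative length slope, and all 5 WT NASH libraries of Cd74 (75.6 to 111 CPM) lie above the WT chow libraries.

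Marker sums of the cells that carry class II were set beside Cd74. Dendritic cell markers (9 genes) summed to 13.9 to 36.0 CPM in WT chow and 15.2 to 32.1 in WT NASH, B cell markers (6 genes) to 2.49 to 11.1 and 3.16 to 7.54, macrophage and monocyte markers (9 genes) to 208 to 583 and 275 to 706, and resident Kupffer cell markers (6 genes) to 242 to 854 and 336 to 735. All 4 sums overlapped between the groups. Within these lists 1 of 29 genes tested was called between WT NASH and WT chow, where 5.93% of all genes were called. It was the macrophage gene Cd68, at 7.26 ± 4.32 CPM in WT chow and 14.7 ± 1.85 in WT NASH (log2 fold change 1.01, edgeR adjusted p = 0.0380). That call ended with sex as a term and without any of 8 libraries (0.84 to 1.08). Cd3e, a T cell receptor subunit, was also called, at 0.216 ± 0.140 and 0.995 ± 0.564 CPM (log2 fold change 2.11, edgeR adjusted p = 0.0188), and not with sex as a term nor without WT NASH replicate 2 (1.81, adjusted p = 0.0700). It was the single call among 6 tested T and NK cell markers, of which 3 were positive and 3 negative. Cd3d, another subunit of that receptor, differed by -0.11 (edgeR adjusted p = 0.936). The sum of all 9 T and NK markers was 4.44 to 11.3 CPM in WT chow and 8.20 to 11.8 in WT NASH, with overlap. No marker of the class II cell lists was at 0 in all libraries. The part of cell numbers in the Cd74 result was not tested.

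In KO mice on the NASH diet, the remaining counts of H2-Ab1 were higher than in KO chow and in WT NASH. In CPM they were 1.49, 4.57, 2.73, 2.06 and 4.53 in KO NASH replicates 1 to 5, and 0.79, 0.68, 0.79, 1.09 and 1.34 in KO chow. All KO NASH libraries were above all KO chow libraries. The WT NASH values were 0.39, 1.01, 0.85, 2.80 and 1.16, and those of WT chow 0.83, 0.43, 0.40, 1.04 and 0.42. WT NASH replicate 4, the male of its group, lay among the KO NASH libraries. The KO NASH values rested on 35 to 107 counts per library, the WT NASH values on 6 to 19 and the KO chow values on 15 to 22. Of the 24 tested genes of the stretch, H2-Ab1 among them, 18 were positive against KO chow. Their median log2 fold change was 0.59, beside -0.02 over all genes. Against WT NASH 16 of the 24 were positive, with a median of 0.42, beside 0.00388 over all genes. H2-Ab1 was the single call among them in both comparisons. The part of this shift in the H2-Ab1 values was not tested.

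H2-Ab1 was called against KO chow (log2 fold change 1.72 with SE 0.433, adjusted p = 0.0363 by edgeR), as 1 of 9 genes tested where 3.29% of all genes were called. It was called against WT NASH as well (1.39, SE 0.437, edgeR adjusted p = 0.0482), as 1 of 2 of the 9 where 9.65% of all genes were called. Both calls sat close to the threshold. The call against WT NASH was lost with sex as a term (1.35, adjusted p = 0.0957). With KO NASH replicates 1 and 5 counted as 1 sample both were lost, at 1.40 (adjusted p = 0.0632) against WT NASH and 1.72 (adjusted p = 0.0510) against KO chow. Among males alone the difference from WT NASH was -0.02 (adjusted p = 0.988), with WT NASH replicate 4 as the single WT male. The call against WT NASH was lost when any of 13 libraries was left out (WT chow 3 or 5, WT NASH 1, 2, 3 or 5, KO chow 1, 2, 3 or 4, KO NASH 2, 3 or 5), at 1.15 to 1.43 with adjusted p of 0.0518 to 0.130. The call against KO chow was lost without any of 7 (KO chow 1, 2, 4 or 5, KO NASH 2, 3 or 5), at 1.53 to 1.86 with adjusted p of 0.0516 to 0.0967.

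The other class II chains were not called in any comparison. H2-Aa, which pairs with H2-Ab1, was at 0.41, 2.06, 1.79, 6.17 and 0.90 CPM in the WT libraries on chow and 0.97, 1.42, 2.30, 3.09 and 1.68 on the NASH diet, and at 0.79, 5.71, 1.14, 1.09 and 6.08 in the KO libraries on chow and 0.85, 2.56, 1.86, 2.16 and 2.86 on the NASH diet. The chow groups held the highest libraries, 1 in WT and 2 in KO, and all groups overlapped. Between KO NASH and KO chow it differed by -0.53 (2-SE interval -1.77 to 0.72), opposite in sign to H2-Ab1. H2-Eb1 was at 1.36, 0.38, 0.40, 0.95 and 0.28 CPM in the WT libraries on chow and 1.48, 0.77, 0.85, 1.32 and 1.42 on the NASH diet, and at 0.93, 2.17, 1.24, 0.73 and 0.24 in the KO libraries on chow and 0.77, 1.71, 1.86, 2.68 and 2.95 on the NASH diet. The log2 fold change of NASH against chow was 0.77 in WT and 0.88 in KO. That of KO against WT on the NASH diet was 0.78. Their SE were 0.481 to 0.525, with edgeR adjusted p of 0.277 to 0.391.

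**Figure D3:**
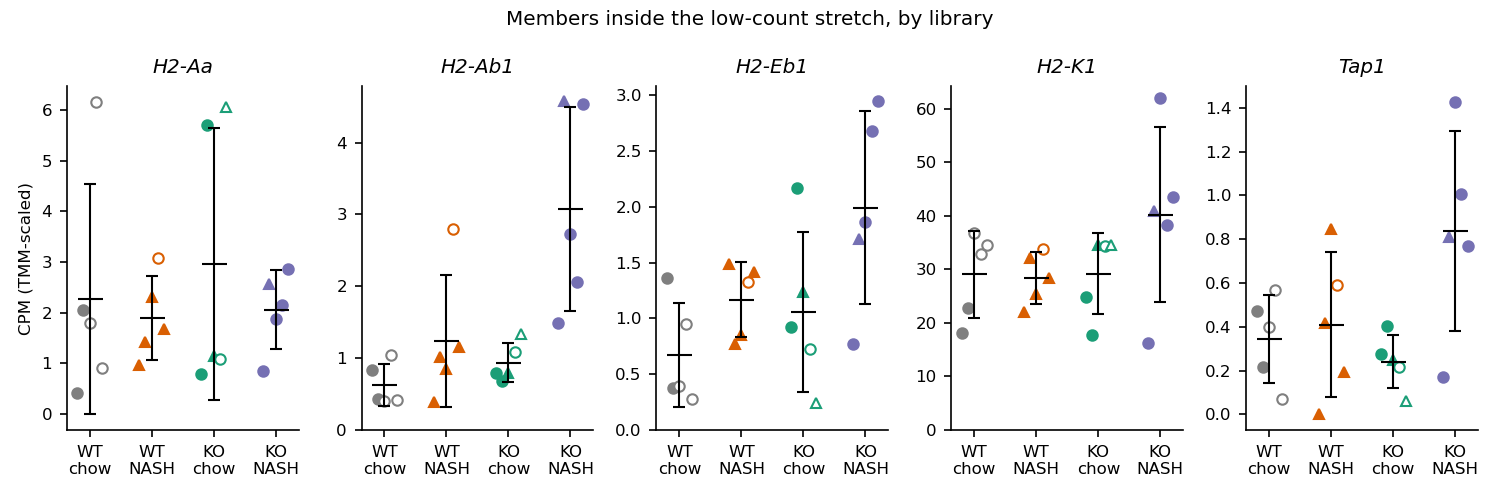
TMM-scaled CPM (y axis) of the 5 tested genes of the low-count stretch in each library of the 4 groups (x axis), with mean and SD bars (n = 5) and symbols for sex and length slope (triangles female, circles male, open symbols a negative slope). H2-Ab1 of KO NASH (1.49 to 4.57 CPM) lies above KO chow, while H2-Aa has single libraries at 5.71 to 6.17 CPM in the chow groups.

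B2m, the light chain of class I, was lower in KO NASH than in WT NASH. In CPM it was 1804, 5478, 2001, 10297 and 5229 in WT NASH and 1528, 1540, 1969, 1782 and 1551 in KO NASH. The KO NASH libraries were close to each other, while 3 WT NASH libraries were far above them and the other 2 near them, with an overlap of 1 library on each side. The means were 4962 ± 3447 and 1674 ± 195 CPM (SD, n = 5), with a log2 ratio of -1.57 (SE 0.430, adjusted p = 0.0267 by edgeR), called as the other of the 2 genes in that comparison. Leaving out WT NASH 2, 4 or 5, or KO NASH 1, 2 or 5, ended the call, at -1.55 to -1.12 with adjusted p of 0.0507 to 0.0973. The smallest difference was without WT NASH replicate 4, the male with the negative length slope. With KO NASH replicates 1 and 5 counted as 1 sample it was -1.52 (adjusted p = 0.0698).

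On chow B2m was at 1507, 1593, 3431, 4620 and 3125 CPM in WT and 1307, 1142, 1921, 2528 and 3080 in KO, with overlap. No other B2m comparison was called: WT NASH differed from WT chow by 0.80 (SE 0.423), KO chow from WT chow by -0.52 (SE 0.421) and KO NASH from KO chow by -0.25 (SE 0.421), with edgeR adjusted p of 0.271, 0.540 and 0.736. B2m moved with the length slope of the libraries. B2m is short, with 860 exonic bases against a median of 4207 for tested genes, and it was at 2528 to 10297 CPM in the 6 libraries with a negative slope and 1142 to 5478 in the other 14. With the slope as a term, KO NASH against WT NASH was -0.92 (adjusted p = 0.0160), smaller by more than 1.5-fold on the linear scale but still called. WT NASH against WT chow then became a call at 1.13 (edgeR adjusted p = 0.00464). In that comparison the fit called 1804 of 14440 genes, beside 857 without the slope. KO NASH against KO chow changed sign to 0.36 (edgeR adjusted p = 0.402).

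H2-K1, a class I heavy chain, was at 18.2, 22.7, 36.8, 33.0 and 34.6 CPM in the WT libraries on chow and 22.02, 32.2, 25.4, 33.8 and 28.4 on the NASH diet, and at 24.9, 17.7, 34.5, 34.4 and 34.5 in the KO libraries on chow and 16.2, 41.0, 62.0, 38.4 and 43.5 on the NASH diet. KO NASH held both the lowest and the highest library of the 20, and no comparison was called. KO NASH against WT NASH was 0.50 (SE 0.281, edgeR adjusted p = 0.270), opposite in sign to B2m. With the slope as a term it was called (0.70, edgeR adjusted p = 0.0434). That fit called 2369 of 14440 genes, beside 1393 without the slope. The per-length ratio of B2m to H2-K1 ran from 109 to 1040 over the libraries. H2-D1 was listed at 0 in 16 of 20 libraries, with 1 or 2 counts in the others, did not pass the low-count filter and was not tested.

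Tap1, the transporter subunit, was at 0.47, 0.22, 0.40, 0.57 and 0.07 CPM in the WT libraries on chow and 0, 0.42, 0.85, 0.59 and 0.19 on the NASH diet, and at 0.28, 0.40, 0.25, 0.22 and 0.06 in the KO libraries on chow and 0.17, 0.81, 1.43, 1.01 and 0.77 on the NASH diet. All KO NASH libraries except replicate 1 lay above all of KO chow. The difference was 1.71 (SE 0.653, edgeR adjusted p = 0.132) and was not called, on at most 23 counts per library. Nlrc5, the class I co-activator, differed between groups by less than the spread within them. It was at 35.6, 35.3, 31.6, 46.2 and 20.5 CPM in the WT libraries on chow and 26.3, 23.7, 40.4, 26.0 and 28.6 on the NASH diet, and at 38.7, 30.5, 29.4, 17.5 and 25.1 in the KO libraries on chow and 32.9, 28.6, 26.1, 28.9 and 30.5 on the NASH diet. Its largest difference between groups was -0.26, for KO chow and WT chow (2-SE interval -0.69 to 0.17), and none was called.

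**Figure D4:**
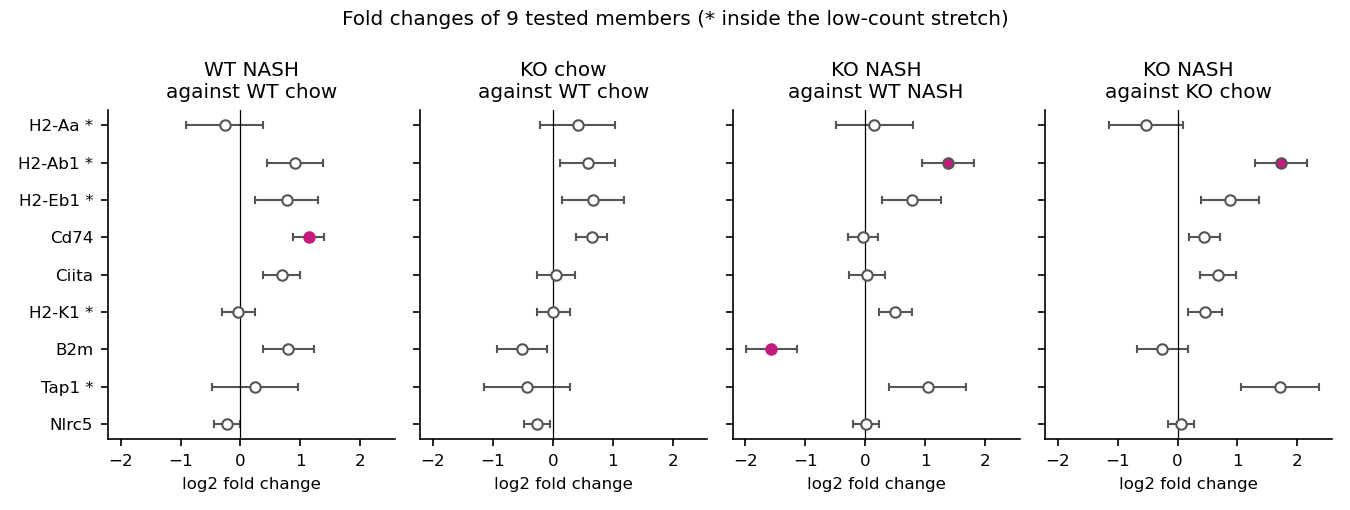
Log2 fold change with SE (x axis) of the 9 tested genes (y axis) in 4 comparisons of the edgeR fit. Filled points have an adjusted p under 0.05 (Cd74 at 1.14, H2-Ab1 at 1.39 and 1.72, B2m at -1.57), and asterisks mark genes of the low-count stretch.

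No gene of the set was called for KO chow against WT chow, where edgeR called 5.53% of all genes. At an unadjusted p under 0.05, 1 of 9 (Cd74) passed, against 19.4% of all genes. There limma voom called 2 of 9 (Cd74 and B2m) where it called 40.4% of all genes, and DESeq2 called none where it called 9.63%. None was called for the interaction of genotype and diet, where 0.139% of all genes were called, and none of 9 reached an unadjusted p under 0.05, against 8.25% of all genes. For the interaction limma voom called 1 of 9 (Cd74) where it called 13.5% of all genes, and DESeq2 none where it called 1.31%. The median log2 fold change of the 9 genes was 0.69 for the diet in WT mice and 0.46 in KO mice, and 0.05 for the knockout on chow and 0.15 on the NASH diet, beside medians of -0.02 to 0.01 over all genes. The comparisons share groups, and these medians mix genes inside and outside the stretch.

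The rest of the class II pathway was not called. Of 16 listed genes (the H2-DM and H2-O exchange factors, the proteases Ctss, Ctsl and Lgmn, the thiol reductase Ifi30, the RFX subunits and March1), 15 were in the table, 7 lie in the stretch and 9 were tested, of which 1 is in the stretch. None passed the test in any comparison. Their median for WT NASH against WT chow was -0.02, with 4 higher and 5 lower, and for KO NASH against WT NASH also -0.02. Ctss, the protease that trims the invariant chain, stood at 133 ± 110 CPM (WT) and 133 ± 85.3 (KO) on chow, and at 107 ± 74.1 (WT) and 67.3 ± 14.1 (KO) on the NASH diet.

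Of 12 other class I pathway genes, 11 were tested, 3 of them in the stretch. For KO NASH against WT NASH, 9 of 11 were negative with a median of -0.34, beside 0.00388 over all genes. Of the 11, 1 was called, where 9.65% of all genes were called. That gene was Erap1, the aminopeptidase that trims peptides for class I. It was at 138 ± 19.0 CPM in WT NASH (115 to 164) and 85.9 ± 3.08 in KO NASH (83.3 to 90.4), with no overlap (log2 fold change -0.69, SE 0.159, edgeR adjusted p = 0.0111). Psme2, a subunit of the proteasome activator, had a difference of -0.86 (edgeR adjusted p = 0.138), and its groups did not overlap. For the diet in WT mice the median was 0.34, with 8 of 11 positive and none called, where 5.93% of all genes were called.

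Among 19 class I-like genes, 18 were in the table and 11 were tested, 3 of them in the stretch. Of the 11, 1 was called for WT NASH against WT chow, where 5.93% of all genes were called. For KO chow against WT chow 1 was called, where 5.53% of all genes were. Hfe, the class I-like regulator of iron uptake, was at 67.6 ± 16.2 CPM in WT chow and 42.1 ± 7.77 in WT NASH (log2 fold change -0.68, edgeR adjusted p = 0.0467). That call was lost with sex as a term and without any of 14 libraries, at -0.72 to -0.62. H2-Q5, in the stretch, was at 2.57 ± 0.548 CPM in WT chow and 5.77 ± 2.28 in KO chow (log2 fold change 1.17, edgeR adjusted p = 0.0188). The call was lost without KO chow replicate 1 (1.02, adjusted p = 0.0638). Whether reads of H2-Q5 are shared with other genes was not tested. H2-T23 and H2-T22, non-classical class I genes beyond the stretch, had 61947 and 27614 counts over the 20 libraries. H2-T23 stood at 168 ± 46.0 CPM (WT) and 186 ± 72.5 (KO) on chow, and at 182 ± 42.8 (WT) and 171 ± 21.2 (KO) on the NASH diet. Neither H2-T23 nor H2-T22 was called.

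Interferon signalling is the main inducer of Ciita, Nlrc5 and the genes they control. Of 15 listed interferon genes, none in the stretch, 13 were tested, and 4 of the 13 were called lower in KO NASH than in WT NASH and none higher. Of all genes 4.74% were called lower in that comparison, and 9.65% in either direction. Of the 13, 12 were negative, and the median was -0.54 beside 0.00388 over all genes. Gbp3, an interferon-induced GTPase, was at 17.5 to 47.3 CPM in WT NASH and 8.72 to 16.4 in KO NASH (log2 fold change -1.46, edgeR adjusted p = 0.00525). Irgm1, another such GTPase, was at 43.7 to 70.3 and 20.3 to 31.8 CPM (-1.18, edgeR adjusted p = 0.00719). Neither pair of groups overlapped.

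Gbp2 was at 9.23 to 34.1 CPM in WT NASH and 5.34 to 8.46 in KO NASH (log2 fold change -1.71, edgeR adjusted p = 0.0360), without overlap. Cxcl9, a T cell chemokine, was at 10.7 to 184 and 7.89 to 14.3 CPM (-2.57, edgeR adjusted p = 0.0359), with overlap. Gbp2 was not called without any 1 of WT NASH 2, 3, 4 or 5 or any KO NASH library (-1.80 to -1.50), nor Cxcl9 without WT NASH 4 or any KO NASH library (-2.72 to -1.54). With sex as a term, neither Gbp2 nor Cxcl9 was called.

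On chow, Irgm1 was at 33.9 to 84.2 CPM in WT and 17.4 to 42.4 in KO (log2 fold change -1.08, edgeR adjusted p = 0.0174). Irgm1 was the single called gene of the 13, where 5.53% of all genes were called. It was not called without WT chow 4, KO chow 1 or KO chow 2 (-0.98 to -0.92). In WT mice on the NASH diet, Gbp3 (1.01, edgeR adjusted p = 0.0493) was higher than on chow, as 1 of 13 genes tested, where 5.93% of all genes were called. The call ended with sex as a term, and without any of 13 libraries (0.81 to 1.07). No interferon gene was called between KO NASH and KO chow. The comparisons with WT NASH share those 5 libraries, so a difference in them moves both comparisons.

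**Figure D5:**
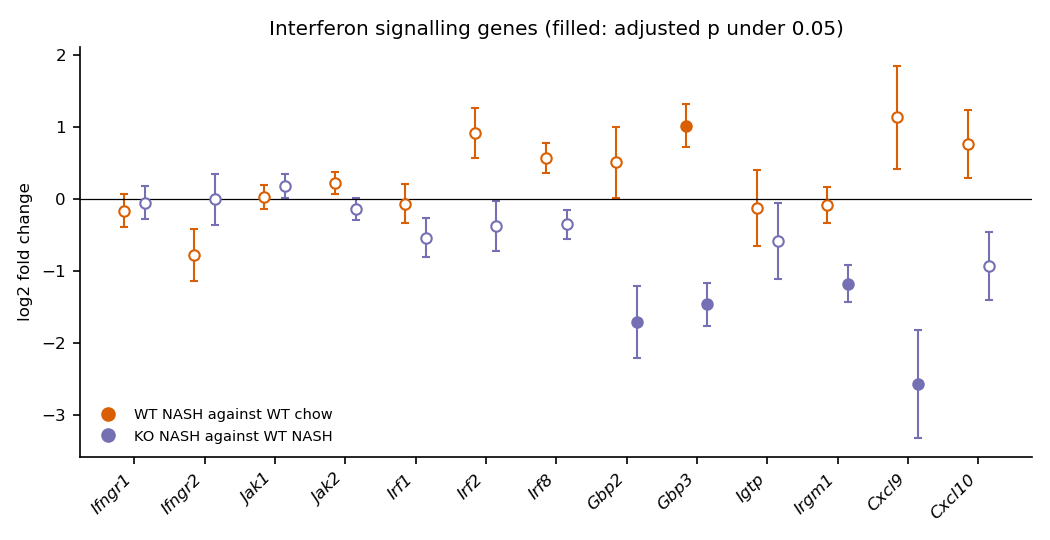
Log2 fold change with SE (y axis) of the 13 tested interferon signalling genes (x axis) for WT NASH against WT chow (orange) and KO NASH against WT NASH (purple), which share the WT NASH libraries. Filled points have an edgeR adjusted p under 0.05, and 4 purple points from -2.57 (Cxcl9) to -1.18 (Irgm1) are filled.

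Markers of other cells differed between the NASH groups as well, in a comparison where 9.65% of all genes were called. Resident Kupffer cell markers, in sum, were at 336 to 735 CPM in WT NASH and 232 to 317 in KO NASH, without overlap, and at 375 to 942 in KO chow. All 6 were negative against WT NASH (median -1.02) and 1 was called, Timd4, at 8.65 to 27.2 and 4.79 to 7.14 CPM (log2 fold change -1.41, edgeR adjusted p = 0.0408), not with sex as a term nor without any of 8 libraries (-1.52 to -1.15). Cx3cr1, a chemokine receptor of monocytes and macrophages, was higher, at 0.653 to 1.77 and 2.59 to 4.26 CPM (1.47, edgeR adjusted p = 0.0382), not with sex as a term nor without any of 6 libraries (1.30 to 1.52). It was the single call among the 9 macrophage and monocyte markers, of which 4 were positive and 5 negative (median -0.20), and their sum was 275 to 706 CPM in WT NASH and 254 to 392 in KO NASH, with overlap. T and NK cell markers summed to 8.20 to 11.8 CPM in WT NASH and 3.79 to 9.02 in KO NASH, B cell markers to 3.16 to 7.54 and 1.77 to 5.40, and dendritic cell markers to 15.2 to 32.1 and 16.7 to 26.0. Cela1, a pancreatic and epithelial elastase gene, was at 11.7 to 107 and 3.24 to 4.45 CPM (-3.15, edgeR adjusted p = 0.00288). It was the single call among 4 tested spleen, pancreas and adipose markers, of which 1 was positive and 3 negative. All 8 listed markers summed to 44.9 to 185 and 38.8 to 70.2 CPM, with overlap. Kdr was higher (0.66, edgeR adjusted p = 0.0323), not with sex as a term nor without any of 6 libraries (0.56 to 0.66). It was the single call among 5 endothelial markers, of which 4 were positive and 1 negative. Hepatocyte markers (5 genes) summed to 45388 to 92815 CPM in WT NASH and 52890 to 64019 in KO NASH. Hbb-bs, of the same list as Cela1, was lower on the NASH diet than on chow in WT (-2.31, edgeR adjusted p = 0.00311). It was also lower in KO (-2.57, edgeR adjusted p = 0.00468). In each it was the single call among the 4 tested. The part of these differences in the Cd74, B2m, H2-Ab1 and interferon results was not tested.

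With group means removed, log2 CPM of Ciita and Nlrc5 correlated at r = 0.78 over the 20 libraries, B2m and H2-K1 at 0.60, H2-Ab1 and B2m at 0.60, H2-Aa and H2-Ab1 at 0.41, and Cd74 and H2-Ab1 at 0.19. These are descriptions. The libraries differ in depth and length slope, whose part in these values was not tested. By the same measure the genes most like H2-Ab1 were Gm6712 (r = 0.80), Ccl3 (0.79), Apol10b (0.79), 2810417H13Rik (0.77) and Gm10145 (0.76). Those most like H2-K1 were COX3 (0.85), Cmtm8 (0.84), Gm7331 (0.83), Gm39167 (0.82) and Alg1 (0.82). The 10 genes of the set were left out of this ranking and could not appear in it. For Ciita and Nlrc5, also looked up later, Spty2d1 and Ptar1 were among the genes most like each. With Ciita they correlated at 0.81 and 0.78, and with Nlrc5 at 0.85 and 0.86. The value of 0.78 was thus not particular to Ciita and Nlrc5. Spty2d1 and Ptar1 have 6788 and 12810 exonic bases, beside 9535 for Ciita and 8493 for Nlrc5. For B2m, looked up after its values were seen, the genes most like it were Rps27l (0.98), Spcs1 (0.98), Ndufa4 (0.98), Deb1 (0.98) and Ccpg1os (0.97), of which the 4 with a known length have 816 to 2404 exonic bases.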

How the data were processed

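Total RNA of liver was sequenced on Illumina machines in 20 libraries, 5 per group. The authors deposited whole-number raw counts by gene symbol, 1 column per library. HISAT2 2.0.4 and GRCm38 are named in the submitters' processing notes (counter, annotation and strand use: not given in the sources used here). Column names call the second diet HFD, and those columns were taken as the NASH groups because the remaining columns name chow. Counts were tested with edgeR 4.0.16 (R 4.3.3): filterByExpr kept 14440 genes (99.91% of counts), libraries were scaled by TMM, and 1 quasi-likelihood model with 4 group terms was fitted to all 20 libraries, with Benjamini-Hochberg adjustment over all genes and calls at an adjusted p under 0.05. The common coefficient of variation was 39%. CPM are computed from the deposited counts. Intervals are 2 SE to each side. Sex was read from 4 Y-linked genes and Xist, and length slopes from GENCODE M21 lengths. The procedure was tested on simulated counts. DESeq2 1.42.0 and limma 3.58.1 (voom) were alternatives.

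To be named were Pck1, the 10 genes and the 5 genes most like H2-Ab1 and H2-K1. Besides these, at most the 4 called genes of largest change per list and comparison were to be named. Psme2, Ctss, H2-T22, H2-T23 and the genes of the low-count stretch were named after their values were seen. So were those most like B2m, Ciita and Nlrc5. The results of 1 listed gene are not reported here, and list counts leave it out. The genes and lists were chosen with earlier results of these data known. Replicate numbers were not taken to pair the samples. Deviations of same-numbered libraries correlated at -0.408 to 0.495, which cannot show whether libraries of the same number were handled together.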

Additional observations from a re-analysis of the deposited data

Results flagged for a closer look

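H2-Aa in WT chow replicate 4 was at 6.17 CPM, and the nearest of the other 4 libraries was at 2.06 CPM. The gap took 0.715 of the group's range, above Dixon's 95% critical value of 0.71 for 5 samples. It was 1 flag in 37 groups of values examined, and chance alone flags about 1 in 20 groups. H2-Aa lies in the low-count stretch of chromosome 17.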

How the results depend on the processing

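Over 65 results for single genes, 2129 alternative values were computed. Of these 1856 kept their direction and their side of the threshold, 182 kept the direction and lost the call, 8 gained a call and 83 changed direction. Of the 83, 1 belonged to a called result, H2-Ab1 in KO NASH compared with WT NASH among males alone (-0.018), and the smallest adjusted p after a change was 0.313. H2-D1, with 6 counts over the 20 libraries, was not tested, and Tap1 (160), H2-Eb1 (451), H2-Ab1 (533), H2-Aa (780) and Ciita (929) rested on the fewest counts of the tested genes. The causes of the changes were not tested. The fit without the genes of that stretch was chosen after seeing the data. Females alone gave no comparison with WT chow, which had none.

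The number of the 9 tested genes called changed as follows. In brackets stands the number of all genes called in the same fit, of 14440 tested unless given. For WT NASH and WT chow it was 1 (857), 0 with sex as a term (161) and 2 with the length slope (1804). It was also 2 with sex and slope (721) and with limma voom (5866). WT NASH held 1 male and KO NASH 1 female, so single-sex counts are left out where they rest on 1 library. For KO chow and WT chow it was 0 (798), and 2 with limma voom (5836). For KO NASH and WT NASH it was 2 (1393). It was 1 with RLE size factors (1383), without the low-count filter (1196 of 26350) and with sex as a term (625). With only the 2 groups fitted it was 1 (2073 of 13656). Without the stretch it was 1 of 4 genes tested (1394 of 14416). It was 0 with KO NASH 1 and 5 as 1 sample (764 of 14603). With the length slope, which added H2-K1, it was 3 (2369). For KO NASH and KO chow it was 1 (475). It was 0 without the filter (253 of 26350) and for males alone (59 of 15930). With KO NASH 1 and 5 as 1 sample (180 of 14603) and without the stretch (472 of 14416) it was also 0. For the interaction it was 0 (20), and 1 with limma voom (1949). Leaving out 1 library gave 1 to 1, 0 to 1, 0 to 2, 0 to 1 and 0 to 0 calls in the same order of comparisons. Of all genes, those fits called 414 to 1712, 347 to 1219, 714 to 1727, 147 to 792 and 4 to 144.

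Log2 fold changes of other sign were all uncalled. Between the diets in WT they were 0.024 for H2-Aa and 0.079 for H2-K1 with sex and slope, 0.45 and 0.20 for males alone, 0.20 for H2-K1 with the slope and -0.35 for Tap1 with limma voom. Between the genotypes on chow they were -0.022 and -0.057 for Ciita with the slope and with sex and slope, -0.035, -0.17 and -0.41 for H2-K1 with sex, for males alone and with limma voom, and 0.019 for Nlrc5 with limma voom. Between the genotypes on the NASH diet they were -0.65 for H2-Aa and 0.24 for Cd74 in males alone, -0.077 and -0.027 for Ciita and -0.100 and -0.096 for Nlrc5 with the slope and with sex and slope, and -0.034 for Nlrc5 in females alone. Between the diets in KO they were 0.36, 0.31, 0.038 and 0.21 for B2m with the slope, with sex and slope, for males alone and with limma voom, 0.071 for H2-Aa with limma voom, and -0.073, -0.072 and -0.13 for Nlrc5 with the slope, with sex and slope and with limma voom. For the interaction they were 0.14 for H2-Aa and 0.013 for B2m with limma voom, -0.47 for H2-Ab1 in males alone, 0.042 and 0.030 for Ciita with sex and with sex and slope, and -0.35, -0.34, -0.27 and -0.54 for H2-Eb1 with sex, with sex and slope, for males alone and with limma voom.

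With single libraries left out, values of both signs were found for several uncalled results. Between the diets in WT the values ran from -0.54 to 0.53 for H2-Aa, from -0.17 to 0.058 for H2-K1 and from -0.30 to 0.58 for Tap1. Between the genotypes on chow they ran from -0.12 to 0.22 for Ciita and from -0.10 to 0.15 for H2-K1. On the NASH diet they ran from -0.017 to 0.37 for H2-Aa, -0.14 to 0.068 for Cd74, -0.12 to 0.13 for Ciita and -0.048 to 0.17 for Nlrc5. In KO between the diets they ran from -0.079 to 0.20 for Nlrc5, and for the interaction from -1.07 to 0.15 for H2-Aa, -0.37 to 0.55 for H2-Eb1 and -0.19 to 0.15 for Ciita.

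The replicate numbers are shared across groups but were not taken to pair the samples. With the replicate block the log2 fold change of Cd74 was 1.19, that of H2-Ab1 1.48 and 1.72, and that of B2m -1.36, all still called. H2-K1 between the diets in WT changed sign with the block, to 0.023, and was not called. Gbp3 in WT, and Cx3cr1 and Timd4 on the NASH diet, were not called with the block.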
